A study of Mus musculus with 82 samples.

Results

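The genes described here are 10 repressors and output genes of the circadian clock: Bhlhe40, Bhlhe41, Cry1, Cry2, Per1, Per2, Per3, Nr1d1, Nr1d2 and Dbp. They were chosen by name, as the probe sets of a mouse whole-genome Affymetrix array that are annotated to 1 of these symbols alone. The choice was made with earlier results of these data known, so shares over all genes beside their counts are a description only. That gives 20 of 45037 probe sets and 10 of 18193 genes, and all 10 genes were measured in both cell types. The series holds 82 arrays in 12 groups. Mouse embryonic fibroblasts (MEFs) and primary hepatocytes on a C57BL/6 background were either control cells (WT) or were knocked out for both genes of the catalytic subunit of the energy sensor AMPK (genotype AMPK alpha1-/- alpha2-/-, dKO). Every group was exposed for 4 h to vehicle (DMSO), to 991 or to AICAR. MEFs, in DMEM with fetal calf serum, received 991 at 10 µM or AICAR at 2 mM. Hepatocytes, isolated by collagenase perfusion and kept overnight on collagen in medium with dexamethasone in every group, received 991 at 3 µM or AICAR at 300 µM. 991 binds AMPK directly, and AICAR is turned inside the cell into ZMP, a mimic of AMP that AMPK senses and that can also act on other AMP-regulated enzymes. The series asks which responses to these activators need AMPK.

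The 23 MEF arrays comprise 4 per group, except 3 for WT cells with 991, and the labels call them technical replicates. P-values in MEFs therefore measure technical spread only. No separate lines or embryos are named, so genotype and line cannot be told apart in MEFs. The 59 hepatocyte arrays cover 2 cell preparations of each genotype. Each treatment of a preparation has 5 technical replicates, except 4 for the first dKO preparation with vehicle. The mean over technical replicates stands for a preparation, which gives each hepatocyte group n = 2. Per the labels the submitters dropped 1 further array of each cell type. Precision is set by these small numbers. All cells were harvested at 1 time after treatment, and the labels name no clock time and no synchronization of the cells.

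The mammalian clock is a feedback loop. The activators CLOCK and BMAL1 (gene Arntl) bind E-boxes in DNA and drive the Per and Cry genes, whose proteins return to the nucleus and repress CLOCK and BMAL1. Around this loop, BHLHE40 and BHLHE41 (DEC1 and DEC2) repress at the same E-boxes, NR1D1 and NR1D2 (REV-ERB alpha and beta) repress Arntl at ROR elements, and DBP is an output factor that activates genes through D-boxes. AMPK is known to phosphorylate CRY1 protein and mark it for degradation, which links cellular energy state to the clock in liver. The arrays measured RNA and not protein.

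Levels are log2 intensities ± standard deviation (SD), and differences are log2 differences ± standard error (SE) from a limma fit across all genes. A gene was called at a Benjamini-Hochberg adjusted p under 0.05 over 18193 genes, and "rose" and "fell" are used of called genes only. An interaction is the effect in WT minus the effect in dKO. A gene with several probe sets is represented by its brightest one in each cell type. Intensities of different probe sets are not on a shared scale, so levels are not compared between genes. In such bulk samples, fewer cells of a type and less RNA per cell cannot be told apart. Both compounds were compared with the same vehicle arrays, and their doses differ, so their values are set side by side without a comparison.

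As a check of the labels, Prkaa1, which encodes AMPK alpha1, was 5.63 ± 0.13 in WT and 4.52 ± 0.09 in dKO hepatocytes with vehicle (SD, n = 2), in a comparison in which 0 genes were called. Prkaa2, which encodes AMPK alpha2, was 9.69 ± 0.03 in WT and 9.60 ± 0.05 in dKO hepatocytes with vehicle, and so hardly differed. In MEFs the difference (dKO minus WT) was -0.09 for Prkaa1 and was not called, while that of Prkaa2 was -0.32 and was called. The sources used here do not give the deleted part of either gene, and a probe set outside it checks nothing. Array medians ranged from 6.16 to 6.25 in MEFs and from 5.88 to 6.08 in hepatocytes, and no pair of arrays was identical. With vehicle, all 8 measured hepatocyte markers were higher in hepatocytes, and 6 of 8 fibroblast markers were higher in MEFs of both genotypes. The mean level of the fibroblast markers was lower in dKO MEFs (9.34 to 9.43) than in WT MEFs (10.99 to 11.05). All 6 macrophage and all 5 endothelial markers were also higher in hepatocyte cultures than in MEFs. No filter on dim genes was applied. Bhlhe41, Dbp, Per2 and Nr1d1 lay below the median gene in MEFs, as did Bhlhe41, Dbp, Per3 and Nr1d1 in hepatocytes.

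In WT MEFs, 991 raised 4 of the 10 clock genes, Bhlhe40, Dbp, Cry1 and Nr1d2, and lowered Bhlhe41, where 19.7% of all genes were called (14% higher, 5.65% lower). In dKO MEFs, 991 changed 0 of 10 in the limma test, against 3.46% of all genes (1.88% higher, 1.58% lower). Of the 10, 1 (Nr1d1) had an unadjusted p under 0.05, as had 2846 of all 18193 genes. The interaction was called for Bhlhe40, Dbp and Nr1d2, 3 of 10 genes against 5.28% of all genes (4.37% higher, 0.912% lower). Quantile normalization shifted these shares over all genes, from 2555 higher and 1027 lower to 1276 and 1051 in WT, from 342 and 287 to 338 and 477 in dKO, and from 795 and 166 to 513 and 234 for the interaction. AICAR called 6 of 10 in WT MEFs, against 35% of all genes (19.6% higher, 15.5% lower), with Cry2, Per1, Bhlhe40, Nr1d1 and Nr1d2 higher and Per3 lower. In dKO MEFs it called 5 of 10, against 40.2% of all genes (20.4% higher, 19.8% lower), with Cry2 higher and Per3, Bhlhe40, Dbp and Per2 lower. Its interaction was called for 6 of 10, against 12.1% of all genes (7.93% higher, 4.18% lower), and each of the 6 effects was more positive in WT.

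In WT hepatocytes, 991 raised Bhlhe40 and Per3 and lowered Cry2, 3 of 10 genes against 6.07% of all genes (3.72% higher, 2.36% lower). In dKO hepatocytes it called 0 of 10 in limma, against 0.0055% of all genes (0% higher, 0.0055% lower). An unadjusted p under 0.05 was found for 0 of 10, against 819 of all 18193 genes. The 991 interaction was called for 0 of 10 in limma, against 0.412% of all genes (0.33% higher, 0.0824% lower). Its unadjusted p was under 0.05 for 4 of the 10, against 1416 of all 18193 genes. AICAR called 4 of 10 in WT hepatocytes, against 16.5% of all genes (8.51% higher, 7.99% lower), with Per2, Cry2 and Per1 higher and Cry1 lower. It called 4 of 10 in dKO hepatocytes, against 17.8% (10.5% higher, 7.31% lower), with Dbp, Per2 and Cry2 higher and Bhlhe40 lower. The AICAR interaction was called for 0 of 10 in limma, against 0.308% of all genes (0.154% in each direction). Its unadjusted p was under 0.05 for 2 of 10, against 1592 of all 18193 genes. These hepatocyte calls rest on a fit with the preparation as a block. Without that block the AICAR calls went from 4 to 0 in WT and from 4 to 2 in dKO, and in 991-treated WT cells Per3 was lost (adjusted p = 0.105). With 1 preparation alone, which assumes that it varies like the others, 0 to 2 genes were called for 991 in WT, 0 to 1 for AICAR in WT and 1 to 2 for AICAR in dKO.

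**Figure D1:**
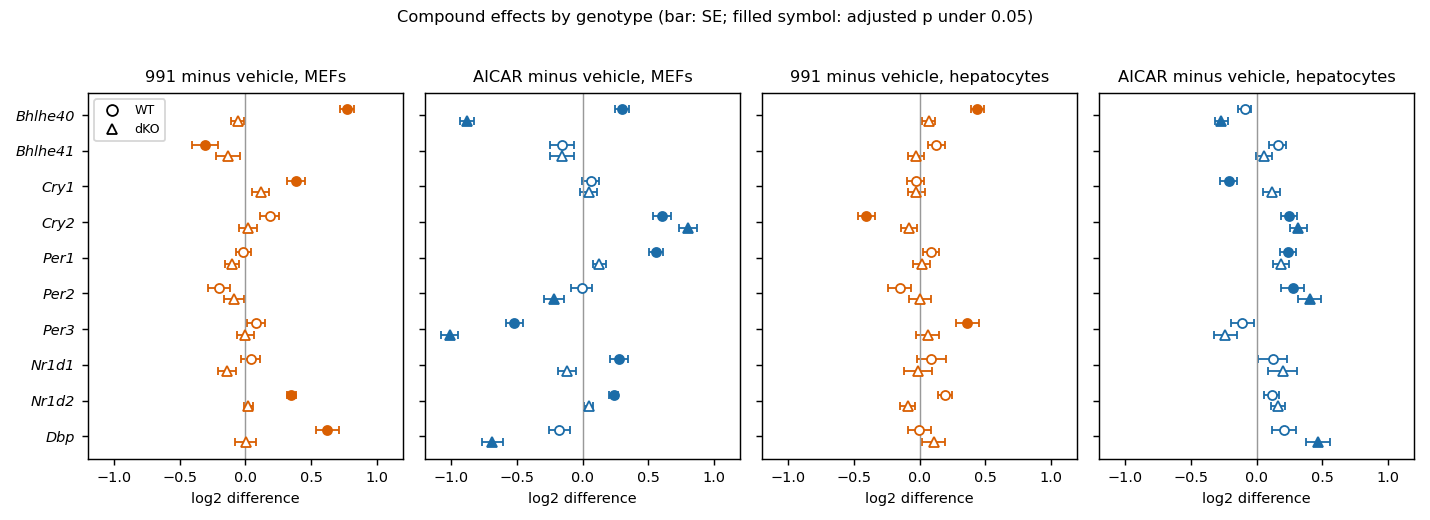
Each panel plots the log2 difference from vehicle (horizontal axis) of the 10 genes in WT cells (circles) and dKO cells (triangles), with bars of 1 SE and filled symbols where the adjusted p was under 0.05. With 991 the filled symbols are all WT, in MEFs and in hepatocytes. With AICAR both genotypes have filled symbols, and Bhlhe40 in MEFs has them on opposite sides of 0 (0.30 in WT, -0.88 in dKO).

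Bhlhe40 (probe set 1418025_at, gene at chr6:108660629-108666925 of GRCm38.p6) encodes the E-box repressor DEC1. In MEFs with vehicle it read 8.02, 8.02, 8.03 and 7.86 on the 4 WT arrays and 8.53, 8.58, 8.54 and 8.52 on the 4 dKO arrays. With 991 the 3 WT arrays read 8.81, 8.76 and 8.70, and the 4 dKO arrays 8.55, 8.53, 8.39 and 8.46. All 3 WT arrays with 991 were above every WT vehicle array, while in dKO the arrays of both treatments overlapped. The 991 effect was 0.77 ± 0.05 in WT (adjusted p = 1.72e-11) and -0.06 ± 0.05 in dKO (adjusted p = 0.62), with an interaction of 0.83 ± 0.07 (adjusted p = 1.94e-08).

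With AICAR, Bhlhe40 moved in opposite directions in MEFs of each genotype. The WT arrays read 8.25, 8.32, 8.30 and 8.26, all above WT vehicle, and the dKO arrays 7.68, 7.75, 7.54 and 7.67, all below dKO vehicle. The rise in WT was 0.30 ± 0.05 (adjusted p = 1.46e-05) and the fall in dKO -0.88 ± 0.05 (adjusted p = 2.07e-15). The interaction was 1.18 ± 0.07 (adjusted p = 3.36e-13), a 2.27-fold ratio of the AICAR effect in WT to that in dKO. From highest to lowest, the group means were WT with 991, dKO with vehicle, dKO with 991, WT with AICAR, WT with vehicle and dKO with AICAR. Of these neighbours, only dKO with vehicle and dKO with 991 were closer than the larger of their SDs.

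In WT hepatocytes Bhlhe40 read 11.80 and 11.64 in preparations 1 and 2 with vehicle and 12.17 and 12.15 with 991. The 5 arrays with 991 were above the 5 with vehicle in each preparation, and the rise was 0.44 ± 0.05 (adjusted p = 0.000446), or 1.36-fold. In dKO hepatocytes the preparations read 11.60 and 11.78 with vehicle and 11.76 and 11.76 with 991, a difference of 0.07 ± 0.05. The dKO arrays with 991 were above those with vehicle in preparation 1 (0.16) and overlapped them in preparation 2 (-0.02). The interaction of 0.37 ± 0.07 missed the threshold (adjusted p = 0.0502), so a difference between the genotypes was not shown in hepatocytes. With WT preparation 1 alone, the 991 effect was 0.37 with an adjusted p of 0.062.

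With AICAR, Bhlhe40 read 11.69 and 11.57 in WT and 11.36 and 11.48 in dKO hepatocytes. The WT difference of -0.09 ± 0.05 was not called (adjusted p = 0.23), and its arrays overlapped vehicle in both preparations. The fall of -0.27 ± 0.05 in dKO was called (adjusted p = 0.00325), without overlap of arrays in either preparation, but not without the preparation block (adjusted p = 0.084). In both cell types the lowest Bhlhe40 group mean was that of dKO cells with AICAR.

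Bhlhe41 (1421099_at, chr6:145858243-145865420) encodes the paralog DEC2. In WT MEFs it read 4.93, 4.78, 4.88 and 4.78 with vehicle and 4.56, 4.55 and 4.50 with 991, without overlap. The fall of -0.31 ± 0.10 (adjusted p = 0.0269) was opposite in sign to that of Bhlhe40 but close to the threshold. It was lost after quantile normalization (adjusted p = 0.082), with the technical replicate number as a block (adjusted p = 0.051) and without any of 5 of the 7 arrays. The second probe set, 1457096_at, gave -0.02 ± 0.13. The 991 effect in dKO MEFs was -0.13 ± 0.09, and the AICAR effects were -0.16 ± 0.09 in both genotypes, none of them called. In dKO MEFs all arrays with AICAR were below those with vehicle. In hepatocytes the 6 group means lay between 5.71 and 5.88, and no comparison was called.

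**Figure D2:**
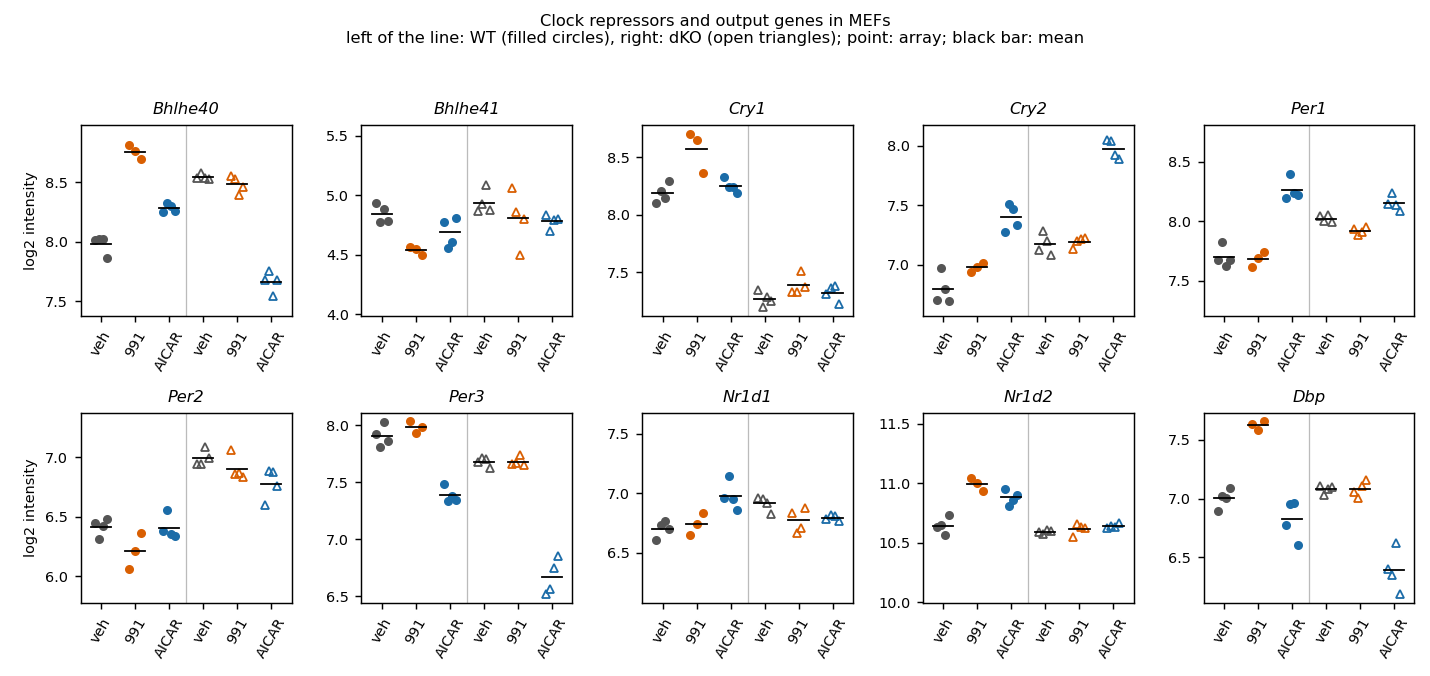
Log2 intensity (vertical axis) of each gene on every MEF array by treatment, with WT to the left of the line in each panel, dKO to its right, and black bars for group means. Bhlhe40 and Dbp stand highest in WT cells with 991, and Bhlhe40, Dbp and Per3 lowest in dKO cells with AICAR. Panels have separate vertical ranges.

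RefSeq promoters (build GRCm38.p6) matched 8 of the 10 genes with 9 starts, as Per1 has 2. Bhlhe40 and Per2 had no entry. In windows from 250 bases before to 50 after each start, both strands were searched for the E-box CACGTG, the related E-prime box CACGTT, the D-box TTATGTAA bound by DBP, the cAMP response element TGACGTCA, the response element TAGGTCA of ROR and REV-ERB receptors and the CLEAR-type box, whose letters contain an E-box. Over 32851 promoters, 7.15% held the E-box, 4.68% the E-prime box, 0.938% the D-box, 1.79% the cAMP response element, 2.61% the receptor element and 0.326% the CLEAR-type box. Cry1 held an E-box starting 60 bases and an E-prime box starting 79 bases before its start. Bhlhe41 held an E-box at 153 bases, the first Per1 start 1 at 166 bases, Cry2 an E-prime box at 166 bases and Nr1d1 one at 28 bases. Per3 held 2 copies of the D-box, at 205 and 158 bases. The windows of Dbp, Nr1d2 and the second Per1 start held none of these letters. A match is a description of the sequence only, since binding was not measured. The bases outside the annotated gene are shown 5′ to 3′ on the gene's strand for the 5 genes whose windows carry these boxes upstream of the gene and whose RNA changed, with the boxes in capitals. They lie at chr4:151044708-151044915 (Per3), chr2:92434086-92434319 (Cry2), chr10:85185055-85185304 (Cry1), chr6:145865421-145865670 (Bhlhe41) and chr11:98775378-98775627 (Nr1d1), all on the minus strand.
Per3: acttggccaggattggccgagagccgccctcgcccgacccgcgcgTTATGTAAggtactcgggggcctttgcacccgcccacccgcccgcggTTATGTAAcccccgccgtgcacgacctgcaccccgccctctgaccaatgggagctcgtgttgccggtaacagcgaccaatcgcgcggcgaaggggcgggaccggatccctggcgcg
Cry2: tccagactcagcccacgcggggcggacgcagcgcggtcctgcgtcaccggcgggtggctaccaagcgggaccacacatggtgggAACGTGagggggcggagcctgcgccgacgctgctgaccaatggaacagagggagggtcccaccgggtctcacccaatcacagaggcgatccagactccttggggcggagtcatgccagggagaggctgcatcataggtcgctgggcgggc
Cry1: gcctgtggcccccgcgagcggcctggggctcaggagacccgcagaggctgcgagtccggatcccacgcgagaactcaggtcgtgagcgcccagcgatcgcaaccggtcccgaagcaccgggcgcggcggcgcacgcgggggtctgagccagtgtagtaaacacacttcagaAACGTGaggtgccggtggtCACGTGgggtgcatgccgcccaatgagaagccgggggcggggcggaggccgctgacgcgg
Bhlhe41: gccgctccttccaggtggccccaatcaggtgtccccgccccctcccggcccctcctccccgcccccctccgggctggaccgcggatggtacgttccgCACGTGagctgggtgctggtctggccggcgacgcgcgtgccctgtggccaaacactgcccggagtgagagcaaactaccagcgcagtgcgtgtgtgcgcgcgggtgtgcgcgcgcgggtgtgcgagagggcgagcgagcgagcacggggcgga
Nr1d1: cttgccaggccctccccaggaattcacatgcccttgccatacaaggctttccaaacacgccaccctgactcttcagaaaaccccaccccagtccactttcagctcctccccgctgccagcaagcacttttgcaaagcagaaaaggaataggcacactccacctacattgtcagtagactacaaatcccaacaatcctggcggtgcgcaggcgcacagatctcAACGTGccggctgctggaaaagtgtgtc

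Cry1 (1433733_a_at, chr10:85131700-85185054) and Cry2 (1426383_at, chr2:92403646-92434085) encode the cryptochromes, the core repressors of CLOCK and BMAL1. In WT MEFs Cry1 read 8.11, 8.21, 8.15 and 8.29 with vehicle and 8.70, 8.65 and 8.36 with 991. All arrays with 991 were above those with vehicle. Cry1 rose by 0.38 ± 0.07 (adjusted p = 0.000274). In dKO MEFs it read 7.35, 7.20, 7.29 and 7.25 with vehicle and 7.33, 7.33, 7.51 and 7.38 with 991, a difference of 0.12 ± 0.06 that was not called. The interaction of 0.27 ± 0.10 missed the threshold (adjusted p = 0.0929) and passed it without the lowest WT array with 991 (0.37, adjusted p = 0.010) or without replicate 3 of dKO with 991 (0.31, adjusted p = 0.042). AICAR gave 0.06 ± 0.06 in WT and 0.05 ± 0.06 in dKO MEFs. The 3 dKO group means of Cry1 lay between 7.27 and 7.39 and the 3 WT means between 8.19 and 8.57, so every WT mean was above every dKO mean.

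In hepatocytes the Cry1 preparations read 9.24 and 9.12 in WT with vehicle, 9.31 and 8.99 with 991, and 9.03 and 8.90 with AICAR. In dKO they read 8.93 and 9.14, 8.94 and 9.09, and 9.03 and 9.27. Arrays of treated and vehicle cells overlapped in every preparation. The fall with AICAR in WT was -0.21 ± 0.06 (adjusted p = 0.0408) and was lost without the preparation block (adjusted p = 0.365) and with preparation 1 or 2 alone (adjusted p = 0.151 and 0.126). No neighbours among the 6 group means were farther apart than the larger of their SDs.

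Cry2 rose with AICAR in all 4 combinations of cell type and genotype. In MEFs with vehicle it read 6.70, 6.98, 6.80 and 6.70 in WT and 7.12, 7.28, 7.20 and 7.08 in dKO. With AICAR it read 7.28, 7.51, 7.47 and 7.33 in WT and 8.05, 8.04, 7.92 and 7.89 in dKO, without overlap in either genotype. The rises were 0.61 ± 0.07 (adjusted p = 9.85e-09) and 0.80 ± 0.07 (adjusted p = 1.53e-11), and the interaction of -0.20 ± 0.10 was not called (95% interval from -0.39 to -0.00, adjusted p = 0.216). With 991 the WT arrays read 6.94, 6.98 and 7.01 and the dKO arrays 7.13, 7.20, 7.21 and 7.22, neither of which was called (0.19 ± 0.07, adjusted p = 0.0685, and 0.02 ± 0.07). Without replicate 2 of WT vehicle the WT value was 0.25 and passed (adjusted p = 0.012).

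In WT hepatocytes Cry2 read 8.20 and 8.22 with vehicle and 7.82 and 7.79 with 991, with all arrays with 991 below all vehicle arrays in each preparation. The fall was -0.41 ± 0.06 (adjusted p = 0.00324), and with preparation 1 alone it was -0.37 and not called (adjusted p = 0.104). In dKO hepatocytes it read 8.20 and 8.28 with vehicle and 8.15 and 8.16 with 991, a difference of -0.08 ± 0.06. The interaction was -0.32 ± 0.09 and was not called (adjusted p = 0.226). With AICAR it read 8.53 and 8.38 in WT and 8.51 and 8.59 in dKO, rises of 0.25 ± 0.06 (adjusted p = 0.0216) and 0.32 ± 0.06 (adjusted p = 0.0054), and arrays of AICAR and vehicle did not overlap in any preparation. The rise in WT was lost without the preparation block (adjusted p = 0.078) and with preparation 2 alone (0.16, adjusted p = 0.242). The rise in dKO was lost with preparation 1 or 2 alone (0.32 in both, adjusted p = 0.073 and 0.102).

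**Figure D3:**
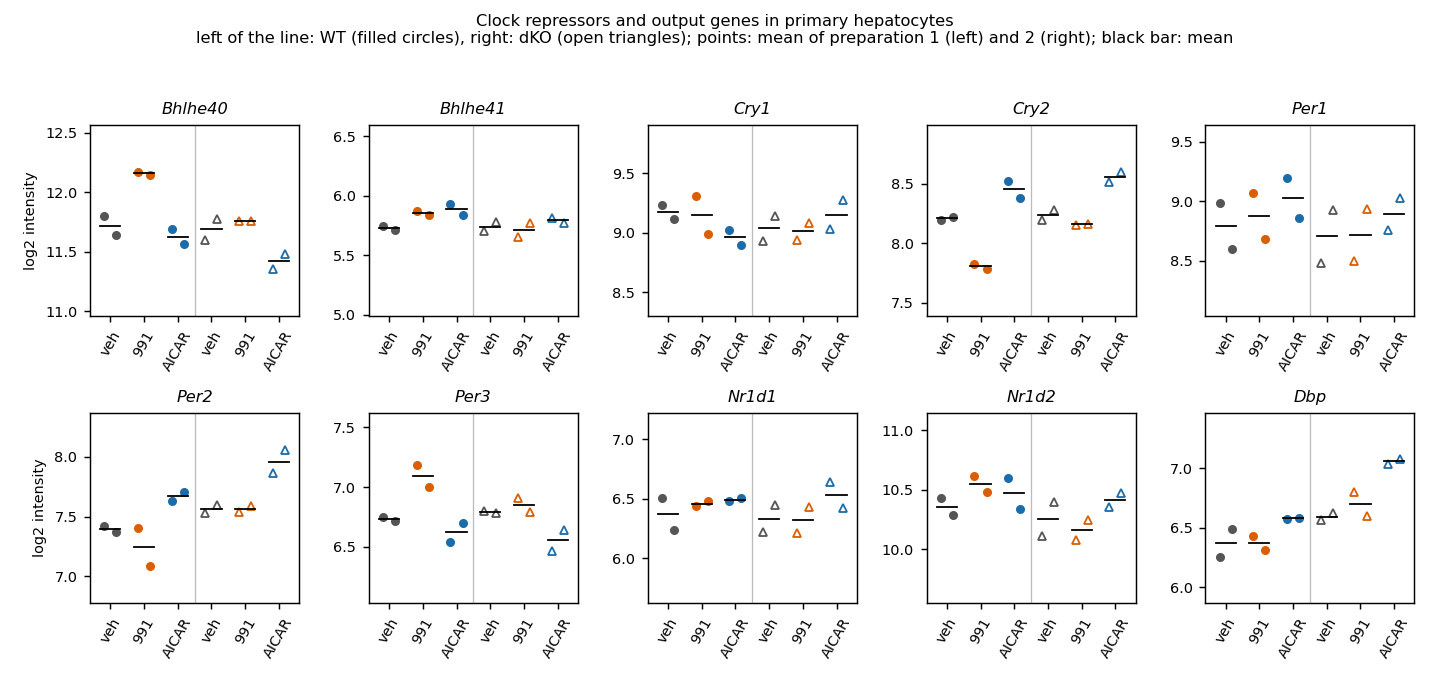
Log2 intensity (vertical axis) of each gene in hepatocytes, as the mean of the technical replicates of preparation 1 (left point) and 2 (right point) in each treatment, with WT left of the line, dKO right, and black bars for group means. Bhlhe40 is highest and Cry2 lowest in WT cells with 991, while the preparations of Per1 lie 0.27 to 0.45 apart in every group. Panels have separate vertical ranges.

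The Per genes encode the partners of the cryptochromes in the repressive complex. Per3 (1421087_at, chr4:150997018-151044707) had the largest compound effect of the 10 genes in MEFs. It read 7.93, 7.81, 8.03 and 7.86 in WT and 7.68, 7.71, 7.70 and 7.62 in dKO with vehicle. With AICAR it read 7.49, 7.33, 7.38 and 7.34 in WT and 6.52, 6.56, 6.75 and 6.85 in dKO, below vehicle on every array. Per3 fell by 0.52 ± 0.06 in WT (adjusted p = 7.55e-08) and by 1.01 ± 0.06 in dKO (adjusted p = 2.27e-14), a 2.01-fold fall. The fall was larger in dKO, with an interaction of 0.49 ± 0.09 (adjusted p = 0.000301). The mean over its 6 probe sets gave an interaction of 0.13 that was not called (adjusted p = 0.328). In the fit over all probe sets, 1458176_at also had a called interaction (0.56 ± 0.10, adjusted p = 0.000341). The rest gave -0.12, 0.03, -0.22 and 0.03 with no call, where 9.37% of all probe sets were called. With 991 Per3 on 1421087_at read 8.04, 7.93 and 7.98 in WT and 7.66, 7.67, 7.74 and 7.65 in dKO, overlapping vehicle in both genotypes. The probe set 1458176_at rose with 991 in WT (0.27 ± 0.08, adjusted p = 0.0226), where 13% of all probe sets were called. In dKO it gave 0.19 ± 0.07 with no call, and no other Per3 probe set was called with 991.

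In hepatocytes Per3 read 6.74 and 6.72 in WT with vehicle and 7.18 and 7.0 with 991. The rise of 0.36 ± 0.09 (adjusted p = 0.0336) was without overlap of arrays in preparation 1 only, and either preparation alone gave no call (0.44 and 0.29, adjusted p = 0.154 and 0.197). In dKO it read 6.80 and 6.78 with vehicle and 6.91 and 6.79 with 991 (0.06 ± 0.09), and the interaction of 0.30 ± 0.13 was not called (adjusted p = 0.583). With AICAR it read 6.54 and 6.70 in WT and 6.47 and 6.64 in dKO, which are differences of -0.11 ± 0.09 and -0.24 ± 0.09 that were not called.

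Per1 (1449851_at, chr11:69095108-69109965) rose with AICAR in WT MEFs. It read 7.67, 7.83, 7.63 and 7.68 with vehicle and 8.19, 8.40, 8.24 and 8.22 with AICAR, a rise of 0.56 ± 0.05 (adjusted p = 3.59e-10). In dKO MEFs it read 8.04, 8.0, 8.06 and 7.99 with vehicle and 8.14, 8.24, 8.13 and 8.09 with AICAR. These arrays did not overlap either, but the difference of 0.13 ± 0.05 just missed the threshold (adjusted p = 0.0527), and it passed without replicate 4 of AICAR (0.15, adjusted p = 0.035). The interaction was 0.43 ± 0.07 (adjusted p = 0.000135). The 991 effects were -0.02 ± 0.06 in WT and -0.10 ± 0.05 in dKO and were not called. The dKO arrays with 991 (7.89 to 7.95) were nevertheless all below those with vehicle.

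In hepatocytes Per1 read 8.98 and 8.60 in WT and 8.48 and 8.93 in dKO with vehicle. With AICAR it read 9.20 and 8.86 in WT and 8.75 and 9.03 in dKO, higher than vehicle in each preparation. The rise in WT was 0.24 ± 0.06 (adjusted p = 0.0235), and the difference in dKO was 0.19 ± 0.06 and was not called (adjusted p = 0.0583). The WT rise was lost without the preparation block (adjusted p = 0.58) and with preparation 1 or 2 alone (adjusted p = 0.211 and 0.125). With 991 it read 9.07 and 8.68 in WT and 8.50 and 8.94 in dKO, and neither difference was called.

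Per2 (chr1:91415977-91459351) has 3 probe sets, which did not move together. In MEFs the gene stands on 1457350_at, which read 6.45, 6.31, 6.42 and 6.48 in WT and 6.94, 6.95, 7.09 and 6.99 in dKO with vehicle. With AICAR it read 6.38, 6.56, 6.36 and 6.34 in WT and 6.60, 6.88, 6.87 and 6.76 in dKO. The fall in dKO was -0.22 ± 0.08 (adjusted p = 0.0253) and was lost after quantile normalization (-0.17, adjusted p = 0.081) and without replicate 1 of AICAR (-0.16, adjusted p = 0.136) or replicate 3 of vehicle (-0.18, adjusted p = 0.090). With 991 it read 6.06, 6.21 and 6.37 in WT, a difference of -0.20 ± 0.08 that was not called (adjusted p = 0.0829). In dKO MEFs with AICAR, the other Per2 probe sets gave 0.05 ± 0.08 (1417602_at) and -0.05 ± 0.09 (1417603_at). Neither was called, where 37.8% of all probe sets were.

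In hepatocytes Per2 stands on 1417602_at, which read 7.42 and 7.37 in WT and 7.53 and 7.59 in dKO with vehicle, and 7.63 and 7.70 in WT and 7.86 and 8.06 in dKO with AICAR. The rises were 0.27 ± 0.09 (adjusted p = 0.0498) and 0.40 ± 0.09 (adjusted p = 0.00771), and both were lost without the preparation block (adjusted p = 0.175 and 0.056) and with any 1 preparation alone (adjusted p from 0.056 to 0.219). The probe set 1457350_at went the other way in dKO hepatocytes, where it read 6.79 and 6.82 with vehicle and 5.57 and 5.95 with AICAR. In the fit over all probe sets, of which 20.8% were called in that comparison, it fell by 1.04 ± 0.11 (adjusted p = 5.3e-05), and its interaction of 0.84 ± 0.16 was called (adjusted p = 0.0159, with 2.52% of all probe sets called). The third, 1417603_at, gave -0.02 ± 0.07 in dKO. A single direction for Per2 in hepatocytes with AICAR can thus not be given, and the mean of the 3 probe sets in dKO was -0.22 (adjusted p = 0.053). With 991 the gene read 7.40 and 7.09 in WT and 7.54 and 7.59 in dKO, with no call.

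**Figure D4:**
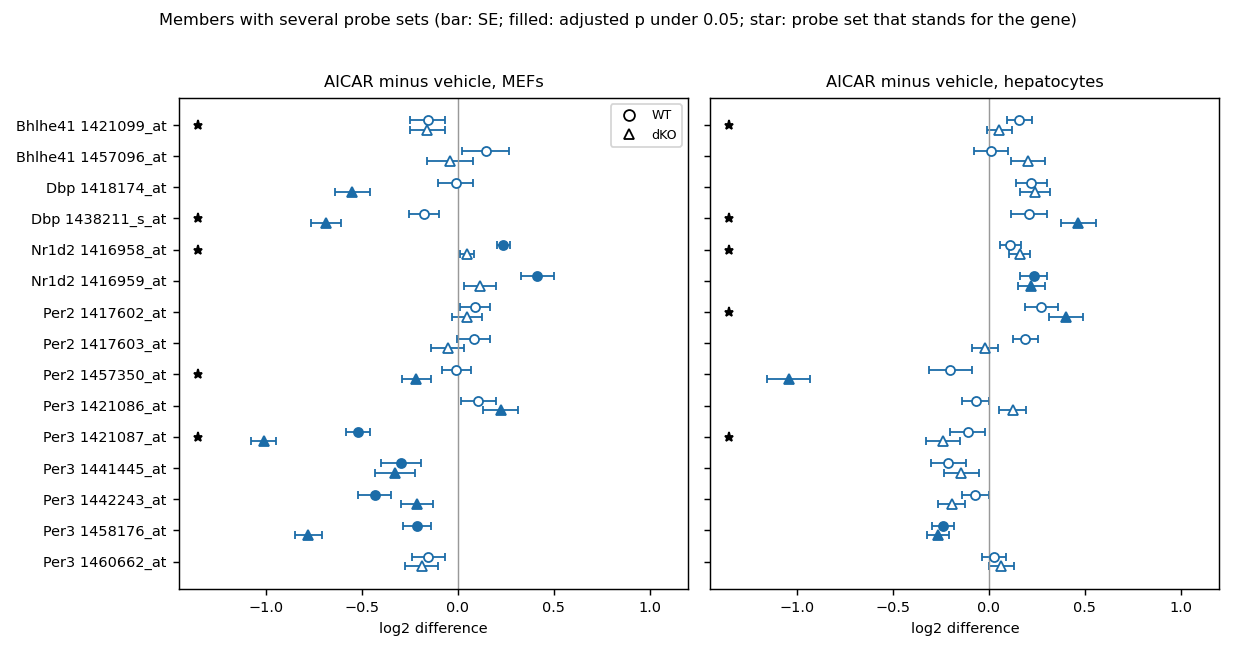
AICAR minus vehicle (horizontal axis, log2 difference, bars of 1 SE) for each probe set of the 5 genes with more than 1, in MEFs (left) and hepatocytes (right), circles WT, triangles dKO, filled where the adjusted p over all 45037 probe sets was under 0.05, and a star at the probe set that stands for the gene. The Per2 probe sets 1417602_at and 1457350_at lie on opposite sides of 0 in dKO hepatocytes (0.40 and -1.04), and in dKO MEFs 4 of the 6 Per3 probe sets are called lower and 1 higher.

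The probe sets of the other genes with several of them were set side by side in the same way. Of the 6 for Per3, AICAR in dKO MEFs gave -1.01 ± 0.06, -0.78 ± 0.07, -0.33 ± 0.10 and -0.21 ± 0.09 for 1421087_at, 1458176_at, 1441445_at and 1442243_at, all called. The call for 1421086_at was in the other direction (0.22 ± 0.09), and 1460662_at gave -0.19 ± 0.09 with no call. In the comparison 37.8% of all probe sets were called. In hepatocytes with AICAR, 1458176_at was the Per3 probe set that fell in both genotypes (-0.24 ± 0.06 in WT and -0.26 ± 0.06 in dKO), where 18.2% and 20.8% of all probe sets were called. Both Dbp probe sets rose with 991 in WT MEFs (0.62 ± 0.08 and 0.55 ± 0.10), where 13% of all probe sets were called, and fell with AICAR in dKO MEFs (-0.69 ± 0.08 and -0.55 ± 0.09). In dKO hepatocytes with AICAR the second Dbp probe set, 1418174_at, gave 0.24 ± 0.08 with no call (adjusted p = 0.0558). Both Nr1d2 probe sets rose in WT MEFs with 991 (0.35 ± 0.04 and 0.30 ± 0.09) and with AICAR (0.24 ± 0.04 and 0.41 ± 0.09, with 31.7% of all probe sets called). The second Nr1d2 probe set, 1416959_at, also rose with AICAR in hepatocytes (0.23 ± 0.07 in WT and 0.22 ± 0.07 in dKO), where the first was not called. The sources used here do not place the probe sets within the transcripts.

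Nr1d1 (1426464_at, chr11:98767932-98775377) and Nr1d2 (1416958_at, chr14:18204056-18239106) encode the heme-binding nuclear receptors REV-ERB alpha and beta. Nr1d2 in WT MEFs read 10.63, 10.65, 10.56 and 10.73 with vehicle, 11.04, 11.01 and 10.93 with 991, and 10.96, 10.81, 10.86 and 10.90 with AICAR. Every treated array was above every vehicle array, and the rises were 0.35 ± 0.04 (adjusted p = 8.39e-08) and 0.24 ± 0.03 (adjusted p = 1.57e-06). In dKO MEFs the 12 arrays lay between 10.55 and 10.66 across all 3 treatments. There the arrays with AICAR were all above those with vehicle, but the difference of 0.05 ± 0.03 was not called. Both interactions were called, 0.33 ± 0.05 for 991 (adjusted p = 0.000136) and 0.19 ± 0.05 for AICAR (adjusted p = 0.00841). The second probe set, 1416959_at, was called for neither (0.23 ± 0.13, adjusted p = 0.315, and 0.30 ± 0.12, adjusted p = 0.135), where 2.9% and 9.37% of all probe sets were called.

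Nr1d1 in WT MEFs read 6.61, 6.73, 6.76 and 6.69 with vehicle and 6.96, 7.14, 6.95 and 6.85 with AICAR, a rise of 0.28 ± 0.07 (adjusted p = 0.00138). In dKO MEFs it read 6.95, 6.95, 6.92 and 6.83 with vehicle and 6.78, 6.81, 6.81 and 6.77 with AICAR. These arrays did not overlap, but the difference of -0.12 ± 0.07 was not called. The interaction of 0.40 ± 0.10 was called (adjusted p = 0.00453). The 991 effects were 0.04 ± 0.07 in WT and -0.14 ± 0.07 in dKO, neither called.

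In hepatocytes no comparison was called for Nr1d1, nor for Nr1d2 on its brighter probe set. Nr1d2 read 10.43 and 10.29 in WT with vehicle, 10.62 and 10.48 with 991, and 10.60 and 10.34 with AICAR. Its 991 difference in WT was 0.19 in each preparation, without overlap of arrays, and missed the threshold (0.19 ± 0.06, adjusted p = 0.0675). In dKO it read 10.11 and 10.40 with vehicle, 10.08 and 10.25 with 991, and 10.36 and 10.47 with AICAR. Nr1d1 group means lay between 6.32 and 6.53, and its AICAR difference in dKO was 0.42 in preparation 1 and -0.03 in preparation 2.

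Dbp (1438211_s_at, chr7:45705100-45710203) encodes the D-box activator that is among the strongest rhythmic outputs of the clock in liver. In MEFs with vehicle it read 6.89, 7.02, 7.0 and 7.09 in WT and 7.11, 7.03, 7.08 and 7.10 in dKO. With 991 it read 7.63, 7.59 and 7.66 in WT and 7.05, 7.01, 7.10 and 7.15 in dKO. The WT arrays with 991 were all above the other 20 MEF arrays, and Dbp rose by 0.62 ± 0.09 in WT (adjusted p = 5.11e-06), with 0.00 ± 0.08 in dKO. The interaction was 0.62 ± 0.12 (adjusted p = 0.00115), and the second probe set, 1418174_at, missed the threshold for it (0.47 ± 0.13, adjusted p = 0.0522).

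With AICAR Dbp read 6.78, 6.96, 6.96 and 6.60 in WT MEFs and 6.40, 6.35, 6.63 and 6.19 in dKO MEFs. The WT arrays overlapped vehicle (-0.18 ± 0.08, adjusted p = 0.0804), with a call without replicate 2 or 3 of AICAR (-0.22, adjusted p = 0.042 in both). In dKO the fall was -0.69 ± 0.08 (adjusted p = 1.18e-08), and the interaction was 0.51 ± 0.11 (adjusted p = 0.00195). In hepatocytes with AICAR, Dbp read 6.58 and 6.59 in WT and 7.04 and 7.08 in dKO, against 6.26 and 6.49 in WT and 6.56 and 6.62 in dKO with vehicle. It rose in dKO by 0.47 ± 0.09 (adjusted p = 0.00437), without overlap of arrays, though not with preparation 2 alone (0.46, adjusted p = 0.056), and the WT difference of 0.21 ± 0.09 was not called (adjusted p = 0.138). The interaction of -0.26 ± 0.13 was not called (adjusted p = 0.606). With 991 Dbp read 6.43 and 6.31 in WT and 6.80 and 6.60 in dKO hepatocytes, and neither difference was called.

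Markers of other cells moved with AICAR in hepatocyte cultures. The mean of the 6 macrophage markers was 8.74 to 9.20 in WT with vehicle and 9.03 to 9.25 with AICAR, and 8.26 to 8.58 and 8.58 to 8.85 in dKO, with 6 of 6 markers higher in both preparations of each genotype. The mean of the 5 endothelial markers was 6.98 and 7.16 in the WT preparations with vehicle and 7.25 and 7.47 with AICAR, with 3 of 5 higher in both. In dKO it was 7.01 and 7.24 with vehicle and 7.31 and 7.48 with AICAR, with 4 of 5 higher in both. Hepatocyte markers were higher in both preparations for 6 of 8 in WT and 8 of 8 in dKO. In MEFs with AICAR the mean of the 8 fibroblast markers was 10.78 to 10.83 in WT, against 10.99 to 11.05 with vehicle, with 4 of 8 below vehicle on every array. In dKO it was 9.23 to 9.39 with AICAR, against 9.34 to 9.43 with vehicle, with 4 of 8 lower and 1 higher on every array. With 991 it was 10.93 to 10.98 in WT, with 2 of 8 lower, and 9.32 to 9.41 in dKO, with 1 of 8 lower. Of 4 cholangiocyte markers in hepatocyte cultures with AICAR, 1 was higher and 2 lower in both WT preparations, and 1 higher and 1 lower in dKO. With 991, 2 macrophage markers were higher and 0 lower in WT, and 4 higher and 1 lower in dKO. For endothelial markers with 991 it was 2 higher and 1 lower in WT, and 1 higher and 2 lower in dKO. The share of all genes that met these rules was not counted. The part of these shifts in the values of the clock genes was not tested.

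With vehicle, dKO and WT MEFs differed in 7 of the 10 genes, where 47.3% of all genes were called (28% higher, 19.2% lower). Per2 (0.58 ± 0.08), Bhlhe40 (0.56 ± 0.05), Cry2 (0.38 ± 0.07), Per1 (0.32 ± 0.05) and Nr1d1 (0.21 ± 0.07) were higher in dKO, and Cry1 (-0.92 ± 0.06) and Per3 (-0.23 ± 0.06) were lower. For Cry1 this was 1.89-fold, with the highest dKO array at 7.35 and the lowest WT array at 8.11 (adjusted p = 1.12e-13). The Per2 difference held for all 3 of its probe sets (0.90 ± 0.08, 0.21 ± 0.09 and 0.58 ± 0.08), in a fit that called 40.9% of all probe sets. The Per3 difference was -0.07 over the mean of its probe sets and was not called (adjusted p = 0.307). In hepatocytes 0 of the 10 genes were called between the genotypes by limma, as were 0 of all genes. An unadjusted p under 0.05 was found for 0 of the 10, against 846 of all 18193 genes. The estimates for the 10 genes were wide, with a 95% interval for Per1 from -0.58 to 0.41.

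Preparations of hepatocytes differed by as much as the treatments for several of the genes. Per1 was lower in preparation 2 than in preparation 1 by 0.34 to 0.39 in the 3 WT treatments and higher by 0.27 to 0.45 in the 3 dKO treatments. In 4 of the 10 genes, Per1, Nr1d2, Cry1 and Bhlhe40, preparation 2 was lower in all 3 WT treatments and higher in all 3 dKO treatments. For Bhlhe40 the difference in dKO with 991 was only 0.002. The share of all genes with this pattern was not counted. Across all genes, the differences between the preparations of WT and dKO cells with vehicle correlated at r = -0.77. With vehicle, opposite preparation differences were thus seen across genes in general. The r does not give the share of genes with the pattern in all 3 treatments. That r is a description over genes, which are not independent. The labels do not give the time of day of any preparation, and n is 1 preparation on each side, so no test was made.

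**Figure D5:**
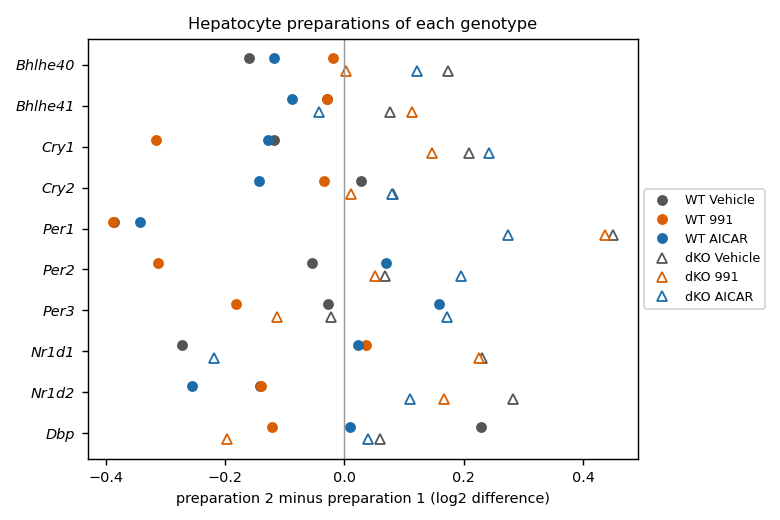
Level in preparation 2 minus level in preparation 1 (horizontal axis, log2) for each gene in hepatocytes, circles WT and triangles dKO, coloured by treatment, with some points covering others. For Per1, Nr1d2 and Cry1 all WT points lie left of 0 and all dKO points right of 0.

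Of 25 other clock genes, listed from general knowledge but with earlier results of these data known, 23 were measured. In WT MEFs 991 raised 3 and lowered 1 (Nampt 0.27 ± 0.04, Csnk1e 0.23 ± 0.05, Tef 0.17 ± 0.04 and Arntl -0.18 ± 0.06), with a median of 0.04 over the list and -0.00 over all genes. Those are 4 of 23 genes, where 19.7% of all genes were called. In dKO MEFs it called 2 higher and 2 lower, against 1.88% and 1.58% of all genes, among them Arntl by the same -0.18 ± 0.05. AICAR raised 9 and lowered 4 in WT MEFs, against 19.6% and 15.5% of all genes, and raised 10 and lowered 6 in dKO MEFs, against 20.4% and 19.8%. Ciart, a repressor of CLOCK and BMAL1, rose by 0.67 ± 0.06 and 0.45 ± 0.06, the kinase Wee1, an E-box target, by 0.53 ± 0.04 and 0.54 ± 0.04, and Nfil3, which represses at D-boxes, by 0.52 ± 0.06 and 0.55 ± 0.06. Cipc, a repressor that binds CLOCK, rose by 0.39 ± 0.04 in WT and by 0.38 ± 0.04 in dKO. Id2, an inhibitor of basic helix-loop-helix factors, fell by 0.25 ± 0.04 in WT and by 0.74 ± 0.04 in dKO, with an AICAR interaction of 0.50 ± 0.05 (adjusted p = 1.41e-08). Arntl fell by 0.21 ± 0.05 in WT and rose by 0.16 ± 0.05 in dKO, with an interaction of -0.37 ± 0.07 (adjusted p = 0.00077). The median of the list with AICAR was 0.04 in both genotypes, against -0.01 and -0.02 over all genes.

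In WT hepatocytes 991 raised 2 and lowered 3 of the 23, against 3.72% and 2.36% of all genes. Ciart (0.59 ± 0.09) and Wee1 (0.38 ± 0.07) rose, and Arntl, which encodes BMAL1 and is the target of REV-ERB repression, fell by 0.40 ± 0.08 (adjusted p = 0.0132), with Id2 lower by 0.30 ± 0.08. In preparations 1 and 2 these differences were 0.37 and 0.81 for Ciart and 0.45 and 0.30 for Wee1. They were -0.37 and -0.42 for Arntl and -0.12 and -0.49 for Id2. In dKO hepatocytes 991 called 0 of 23 in limma, with 2 at an unadjusted p under 0.05, against 819 of all 18193 genes. AICAR raised 7 of 23 in WT hepatocytes, against 8.51% of all genes, and 8 of 23 in dKO, against 10.5%. It lowered 0 of 23 in either by limma, against 7.99% and 7.31% of all genes. Arntl was among those in WT (0.38 ± 0.08, adjusted p = 0.00785), with Usp2 (0.50 ± 0.14), Rora (0.40 ± 0.06) and Tef (0.29 ± 0.06). In preparations 1 and 2 these were 0.52 and 0.23 (Arntl), 0.50 and 0.50 (Usp2), 0.48 and 0.31 (Rora) and 0.30 and 0.29 (Tef). In dKO the largest were Usp2 (0.46 ± 0.14), Csnk1e (0.39 ± 0.06), Nampt (0.34 ± 0.08) and Clock (0.26 ± 0.07). Their preparations gave 0.13 and 0.80 (Usp2), 0.40 and 0.38 (Csnk1e), 0.49 and 0.19 (Nampt) and 0.29 and 0.23 (Clock). The alternative runs were evaluated for the 10 members only, not for these 23 genes. Neither compound's interaction was called for any of the 23 genes in hepatocytes by limma. For 991 its unadjusted p was under 0.05 for 8 of the 23, against 1416 of all 18193 genes. For AICAR it was so for 4 of the 23, against 1592 of all 18193 genes.

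The 10 genes did not vary as a block. Over the 23 MEF arrays, each minus the mean of its genotype, Cry2 and Per3 ran opposite to each other (r = -0.95), Bhlhe40 and Dbp together (r = 0.84), and Per1 with Nr1d1 (r = 0.75). Over the 12 hepatocyte means, each minus the mean of its genotype and preparation, Cry2 was opposite to Per3 (r = -0.93) and to Bhlhe40 (r = -0.96), and Bhlhe40 ran with Per3 (r = 0.92), while Bhlhe40 and Dbp ran opposite (r = -0.62). These values describe samples that share treatments, arrays and normalization, and no test was made.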

How the data were processed

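RNA from 82 samples was hybridised to 1-colour Affymetrix mouse arrays. Per the submitters' processing notes, the authors used Partek with RMA, and the deposited values are normalized log2 intensities, 1 per probe set and array. Versions, and whether both cell types were normalized together, are not given in the sources used here. Levels are therefore not tested across cell types. Of 45101 probe sets, 64 controls were left out. Of the remaining 45037, 34945 have 1 gene symbol in the platform annotation, 932 several and 9160 none, and 34741 matched the RefSeq table by Entrez ID, giving 18193 genes.

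Differences were fitted over all genes with lmFit, contrasts.fit and eBayes (with a trend) of limma 3.58.1, run in R 4.3.3, two-sided, with Benjamini-Hochberg adjustment. All MEF arrays entered 1 fit of 6 group means, with 17 residual degrees of freedom. Technical replicates of hepatocytes were averaged to 12 preparation means and fitted with the preparation as a block, leaving 4 residual degrees of freedom. The vehicle genotypes were compared over 4 means with no block. Across genes, preparation differences with vehicle correlated with those with 991 and AICAR at 0.69 and 0.50 in WT and 0.85 and 0.55 in dKO, and the labels give the shared preparations. A probe set fit over all 45037 used the same designs. The code was tested on simulated data.

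Named are the 10 members, Prkaa1 and Prkaa2, and the genes most like a member by Pearson r. Of the other clock genes, at most 4 called ones with the largest change are named per comparison. Beyond that, a gene named for an interaction, and Cipc, has its value in both genotypes. Members and lists were chosen with earlier results of these data known. Alternatives were quantile normalization, a filter on dim genes, the mean of a gene's probe sets, no variance trend, probe sets as features, replicate blocks, single arrays as samples and leaving out each replicate. Other tools were Python 3.11.15, pandas 2.3.3 and matplotlib 3.10.9.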

Additional observations from a re-analysis of the deposited data

Results flagged for a closer look

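In 9 cases the effect of a compound differed between the MEF genotypes by the interaction test in limma. These were 3 of 10 genes for 991, against 5.28% of all genes, and 6 of 10 for AICAR, against 12.1%. For 991 the WT effect minus the dKO effect was 0.83 for Bhlhe40, 0.62 for Dbp and 0.33 for Nr1d2. For AICAR it was 1.18 for Bhlhe40, 0.51 for Dbp, 0.49 for Per3, 0.43 for Per1, 0.40 for Nr1d1 and 0.19 for Nr1d2. The Per3 interaction was not called over the mean of its probe sets. The second probe set was not called for Nr1d2 with either compound, nor for Dbp with 991.

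In 12 of 170 groups of 4 or 5 arrays, 1 array stood apart from the others by Dixon's criterion, where chance gives 5%, or 8.5 groups. In MEFs, Bhlhe40 was lowest at 7.86 on replicate 4 of WT with vehicle (next 8.02), and Per2 was highest at 6.56 on replicate 2 of WT with AICAR (next 6.38) and at 7.06 on replicate 1 of dKO with 991 (next 6.87). In WT hepatocytes, Cry1 was lowest at 9.06 in preparation 1 with vehicle (next 9.27). Cry2 was highest at 8.49 in preparation 2 with AICAR (next 8.37), Per2 highest at 7.24 in preparation 2 with 991 (next 7.08), and Per3 highest at 6.71 in preparation 1 with AICAR (next 6.51). In dKO hepatocytes, Dbp was lowest at 6.94 in preparation 2 with AICAR (next 7.08), and Cry1 was lowest at 9.05 in preparation 2 with vehicle (next 9.15) and highest at 9.17 in preparation 2 with 991 (next 9.07). Per2 was lowest at 7.48 in preparation 1 with 991 (next 7.54), and Nr1d1 lowest at 6.16 in preparation 1 with vehicle (next 6.23).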

How the results depend on the processing

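Of 32 called differences in MEFs, 28 stayed called in the same direction under every alternative run, and of 11 in hepatocytes 0 did. These counts cannot be compared, since the alternatives differ. MEF runs left out single technical replicates, while hepatocyte runs left out a whole preparation or the preparation block. Variation between MEF lines was not tested. The 4 lost in MEFs were Bhlhe41 with 991 in WT, Per2 with AICAR in dKO, and the Per3 AICAR interaction and vehicle genotype difference. With the mean of its probe sets, Per2 with AICAR in dKO hepatocytes reversed to -0.22, and the probe sets themselves disagreed in sign. With every array as a sample, the members called in hepatocytes were 5 for 991 in WT, 1 in dKO and 4 for its interaction, 8 for AICAR in WT, 9 in dKO and 2 for its interaction, and 2 between genotypes with vehicle. That fit takes technical replicates as samples, and it called 31.7%, 4.3%, 11.6%, 42.2%, 39.2%, 12.7% and 12.6% of all genes in those comparisons, in the same order. Without the replicate block for the preparation they were 0 for AICAR in WT and 2 in dKO, and calls over all genes went from 1105 to 166 (991 in WT), 75 to 3 (its interaction), 3002 to 724 (AICAR in WT), 3234 to 1093 (AICAR in dKO) and 56 to 16 (its interaction). The technical replicate numbers of MEFs did not pair the arrays (median r 0.02, from -0.38 to 0.38), and that block moved no count over all genes by over 1.5 times. Blocking the vehicle genotypes of hepatocytes by preparation number called 0 genes, and with the numbers crossed, chosen after seeing the data (r -0.77), 1462 genes and 0 members. Leaving out 1 replicate gave, in MEFs, 4 to 7 members for 991 in WT, 0 in dKO, 3 to 4 for its interaction, 6 to 7 for AICAR in WT, 4 to 6 in dKO, 6 for its interaction and 7 between genotypes. In hepatocytes it gave 0 to 2 for 991 in WT, 0 to 1 for AICAR in WT, 1 to 2 in dKO and 0 otherwise. The cause of these changes was not tested, beyond the fewer samples in a fit without a replicate.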

Other observations

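The genes whose pattern was most like that of each clock gene were taken over the 23 MEF arrays, each minus the mean of its genotype. Bhlhe40 was most like Klf9 (r = 0.97), Dbp like Akirin2 (0.95), Cry1 like Fam76a (0.93), Cry2 like Nup50 (0.99), Per1 like Klf7 (0.97) and Nr1d2 like Flcn (0.91). Per3, which had the largest compound effect in MEFs, was most like Bcl6 (0.99), Btg2 (0.99), Dusp6 (0.99), Ing5 (0.99) and Id1 (0.98). Over the 12 hepatocyte means, each minus the mean of its genotype and preparation, Bhlhe40 was most like Nfe2l1 (0.99), Cry2 like Baat (0.99), Per1 like Rerg (0.99), Per3 like Ermp1 (0.99) and Dbp like Pnpla8 (0.99). Each was picked as the highest over all genes, across samples that share treatments and normalization, and no test was made.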
